A study of Mus musculus with 6 samples.

Results

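The 10 genes described here are the transcription factor NRF2, its repressor KEAP1 and 8 enzymes that NRF2 is known to control, most of them enzymes of glutathione, thioredoxin and NADPH metabolism. The members were set by name as Nfe2l2, Keap1, Gclc, Gclm, Gsr, Txnrd1, Srxn1, G6pdx, Nqo1 and Hmox1, and all 10 were found by Ensembl identifier among the 55401 genes of the expression table. All 10 also reached the mean of 1 FPKM required for testing, as did 10661 genes in all. RNA-seq was performed on 3 control libraries from cells without treatment and on 3 libraries from cells given 1 μM metformin for 24 h. All 6 libraries came from C57BL/6 mouse cells that the labels call female germline stem cells (FGSCs), a line past passage 20 that was grown on inactivated STO feeder cells with growth factors and β-mercaptoethanol, a thiol reductant, in the medium. The labels number the repeats of each group but do not say whether they were separate cultures, so that the p-values measure the spread between these libraries, which may be technical. The question asked of the data was whether an oxidative response accompanied the rise of stress genes with metformin.

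NRF2, encoded by Nfe2l2, is held in the cytoplasm by KEAP1, which brings it to a ubiquitin ligase for destruction. Oxidants and electrophiles modify cysteines of KEAP1, NRF2 escapes, pairs with a small MAF protein and binds antioxidant response elements next to genes that make glutathione, reduce disulfides and supply NADPH. Because NRF2 is governed largely through its protein stability, the RNA of its target enzymes is commonly read as the record of its activity. Haem oxygenase and the ferritins belong to the same group of targets, and some genes of glutathione handling are also targets of ATF4, the factor of the integrated stress response.

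RefSeq promoter windows on GRCm38.p6, from 250 bases before to 50 bases after a transcript start, were available for 7 of the 10 members, and 5 of these 7 held the core of the antioxidant response element, TGACNNNGC, on one of the strands. The core lies in 14.0% of the 27025 genes with a window, and its first letters are shared with AP-1 and CRE motifs. The element bound by ATF4 with C/EBP partners, here TGATGNAAN, lies in 4.50% of genes, in 0 of these 7 members and in 7 of 21 genes of the ATF4 stress list described below, among them Trib3 and Chac1. The antioxidant core was likewise in 7 of these 21 stress genes, so it is not particular to the members. Of 104 genes with a window from the other redox lists described below, 21 held the antioxidant core and 2 the ATF4 element. The difference in these shares between the groups was not tested. The stretches with a match are printed for the 5 members and for Trib3 and Chac1, the genes with a match on which the comparison with the stress response turns, in the direction of transcription and with the match in capitals. A match describes letters only and is not evidence of binding.
Nfe2l2, chr2:75704854-75704913, minus strand: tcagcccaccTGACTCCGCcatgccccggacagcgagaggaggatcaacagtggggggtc
Gclm, chr3:122245397-122245456, plus strand: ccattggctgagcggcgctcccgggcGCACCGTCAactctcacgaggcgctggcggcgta
Txnrd1, chr10:82859088-82859147, plus strand: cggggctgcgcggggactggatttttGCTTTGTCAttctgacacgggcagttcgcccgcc
G6pdx, chrX:74428904-74428963, minus strand: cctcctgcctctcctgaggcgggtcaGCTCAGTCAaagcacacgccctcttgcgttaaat
Srxn1, chr2:152105542-152105570, plus strand: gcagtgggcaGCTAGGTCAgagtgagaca
Chac1, chr2:119351022-119351081, plus strand: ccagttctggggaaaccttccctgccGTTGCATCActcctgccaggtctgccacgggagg
Trib3, chr2:152344029-152344057, minus strand: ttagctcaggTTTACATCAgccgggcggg
The Nfe2l2 match reads along the gene, whereas the others read on the opposite strand and appear as their complement. The core began 240 bases before the start of Nfe2l2, 134 before that of Gclm, 92 before the second of 3 starts of Txnrd1 and 57 before that of G6pdx, and it began 28 bases after the start of Srxn1. The windows of Nqo1, Keap1 and Ddit3 held neither motif.

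**Figure D1:**
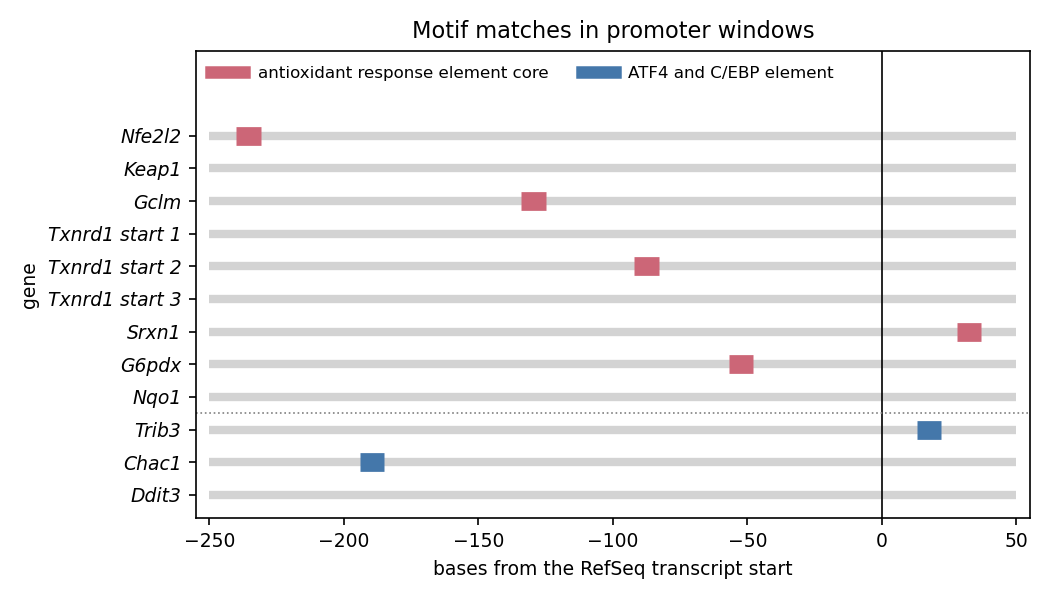
Positions of motif matches in RefSeq promoter windows, with distance from the transcript start in bases on the horizontal axis and 1 row per start site. Red blocks, the antioxidant response element core, lie in windows of 5 members above the dotted line, and blue blocks, the ATF4 and C/EBP element, lie in those of Trib3 and Chac1 below it.

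The depth, estimated from the step that 1 fragment makes in the values of short single-exon genes, was 13400000 to 14000000 fragments per library, and no library stood apart. FPKM totals ranged from 317332 to 320754. Markers went against the label of the cells. Of the 6 germ cell markers that the study used, 0 reached a mean of 1 FPKM, and Pou5f1, Dppa3 and Dazl were listed at 0 in all libraries. Of 12 fibroblast markers for the feeder cells, 12 were under 0.5 FPKM on average. Of 25 blood cell markers 21 reached 1 FPKM, among them Ptprc, Kit and Gata2, and their summed level was 1609 to 1631 FPKM in the control and 1608 to 1632 FPKM in the metformin libraries. The levels below are therefore those of the cultures labelled FGSCs, and in such bulk samples fewer cells of a type and less RNA per cell cannot be told apart.

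All 10 members were expressed, at levels that spanned from Nqo1 to G6pdx. On the FPKM scale, which is per length, G6pdx and Txnrd1 had the highest means in the control group, 64.1 ± 1.03 and 60.5 ± 1.50 (SD, n = 3 each). By the mean over all 6 libraries both lay above 91% of the tested genes. Nfe2l2, Gclm, Gclc and Gsr followed between 25.5 and 27.8 FPKM, and within this run the range of each gene overlapped that of the next. Hmox1, Srxn1 and Keap1 came next at 22.7, 20.7 and 18.6 FPKM, with no overlap between neighbours. Nqo1 was lowest at 7.17 ± 1.12 FPKM (SD, n = 3), and its mean over all 6 libraries was at the 41.6th percentile of tested genes. The order of the means was the same in the metformin group, where the ranges of Gsr and Hmox1 and those of Srxn1 and Keap1 overlapped, while those of Gclc and Gsr did not.

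**Figure D2:**
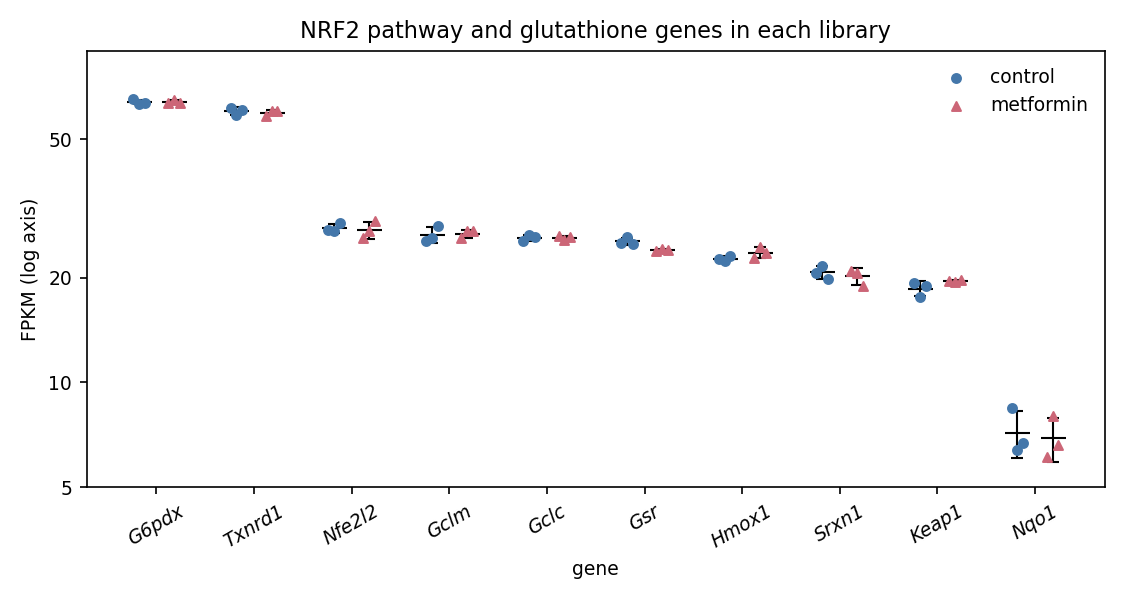
FPKM of the 10 members in each library, on a log axis, with control libraries as circles, metformin libraries as triangles, and the mean ± SD of 3 libraries in black. Levels run from 6.10 FPKM for Nqo1 to 65.3 FPKM for G6pdx, and only Keap1 and Gsr show groups that do not overlap.

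To examine the regulators first, the transcripts of NRF2 and of its repressor were compared between the groups. Nfe2l2 (ENSMUSG00000015839, chromosome 2 from 75675513 to 75704641 on GRCm38) had 27.4, 27.2 and 28.7 FPKM in control repeats 1 to 3 and 26.0, 27.2 and 29.1 FPKM with metformin. The metformin libraries thus spanned the whole control range. Its log2 fold change was -0.02 (standard error 0.04, 95% interval -0.12 to 0.08, adjusted p = 0.904 from limma). Keap1 (ENSMUSG00000003308, chromosome 9 from 21229730 to 21239361) had 19.3, 17.6 and 19.0 FPKM in the control libraries and 19.5, 19.5 and 19.7 FPKM with metformin. All 3 metformin libraries lay above the control libraries, but the nearest values, 19.31 and 19.49 FPKM, differed by less than the control SD of 0.926. The log2 fold change of Keap1, 0.07 (standard error 0.04, interval -0.02 to 0.16), did not pass (adjusted p = 0.555 from limma), and without control repeat 2 it was 0.03. Over 3317 bases Keap1 overlaps an antisense gene that averaged 0.615 FPKM. The ratio of Nfe2l2 to Keap1 FPKM was 1.50 ± 0.0677 in the control group and 1.40 ± 0.0709 with metformin (SD, n = 3 each).

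Glutamate-cysteine ligase, the rate-limiting enzyme of glutathione synthesis, is made of the catalytic subunit GCLC and the modifier subunit GCLM. Gclc (ENSMUSG00000032350, chromosome 9 from 77754535 to 77794485) had 25.6, 26.6 and 26.1 FPKM in the control and 26.5, 25.7 and 26.1 FPKM in the metformin libraries. The means of both groups were 26.1 FPKM, and the log2 fold change of -0.00028 had an interval of -0.07 to 0.06 (standard error 0.03, adjusted p = 0.999 from limma). Gclm (ENSMUSG00000028124, chromosome 3 from 122245557 to 122270732) had 25.5, 26.1 and 28.2 FPKM in the control and 26.0, 27.2 and 27.2 FPKM in the metformin libraries. All metformin values of Gclm lay inside the control range, with a log2 fold change of 0.01 (standard error 0.04, interval -0.09 to 0.11, adjusted p = 0.944 from limma). Both subunits were thus present in near equal amounts of RNA per length, with a Gclc to Gclm ratio of 0.984 ± 0.0488 in the control group and 0.975 ± 0.0387 with metformin (SD, n = 3 each).

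Oxidised glutathione is reduced by glutathione reductase, encoded by Gsr, at the expense of NADPH. Gsr (ENSMUSG00000031584, chromosome 8 from 33652523 to 33698163) had 25.1, 26.2 and 25.1 FPKM in the control libraries and 24.0, 24.2 and 24.0 FPKM with metformin. Every metformin library was below every control library. Gsr also had the lowest log2 fold change of the members, -0.08 (standard error 0.03, interval -0.14 to -0.01). It did not pass over all tested genes (adjusted p = 0.403 from limma), and the exact two-sided permutation test gave p = 0.1, the smallest that 3 libraries against 3 allow. The metformin values of Gsr varied by 0.441%, less than the 3.31% that counting error alone gives for the estimated 914 fragments of its lowest library. Over 144 bases Gsr overlaps SNORA48, a gene on the same strand that averaged 4.1 FPKM.

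Thioredoxin reductase 1, encoded by Txnrd1, and sulfiredoxin, encoded by Srxn1, serve the parallel thioredoxin and peroxiredoxin cycle. Txnrd1 (ENSMUSG00000020250, chromosome 10 from 82833951 to 82897712) had 61.8, 58.8 and 60.8 FPKM in the control and 58.5, 60.3 and 60.5 FPKM in the metformin libraries. The groups overlapped, and the log2 fold change was -0.02 (standard error 0.03, interval -0.08 to 0.05, adjusted p = 0.866 from limma), and -0.0012 without control repeat 1 and -0.0013 without metformin repeat 1. Over 13276 bases Txnrd1 overlaps an antisense gene that averaged 2.99 FPKM, and over 1305 bases a gene on the same strand that averaged 1.34 FPKM. Txnrd1 was 28.8 ± 0.634 times the level of the mitochondrial Txnrd2 in the control group and 26.9 ± 6.81 times with metformin (SD, n = 3 each), where the repeats lay at 34.4, 25.0 and 21.2. The ratio to Txnrd3 was 7.08 ± 0.293 in the control group and 6.76 ± 0.565 with metformin (SD, n = 3 each). Srxn1 (ENSMUSG00000032802, chromosome 2 from 152105516 to 152111376) had 20.7, 21.7 and 19.9 FPKM in the control and 21.0, 20.7 and 18.9 FPKM in the metformin libraries. Repeat 3 was the lowest of each group, the groups overlapped, and the log2 fold change was -0.04 (standard error 0.05, interval -0.15 to 0.08, adjusted p = 0.813 from limma).

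Glucose-6-phosphate dehydrogenase, the entry enzyme of the pentose phosphate pathway and a main source of NADPH, is encoded by G6pdx. G6pdx (ENSMUSG00000031400, chromosome X from 74409483 to 74429194) had 65.3, 63.4 and 63.7 FPKM in the control and 63.7, 65.0 and 63.8 FPKM in the metformin libraries. All metformin values lay inside the control range, and the log2 fold change of 0.00072 had the narrowest interval of the members, -0.05 to 0.05 (standard error 0.02, adjusted p = 0.996 from limma). Ikbkg, an antisense gene that averaged 4.74 FPKM, overlaps G6pdx over its entire length of 19712 bases, and whether the counting used strand is not given in the sources used here.

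The last pair, Nqo1 and Hmox1, are the NRF2 targets most often used as reporters of its activity. Nqo1 (ENSMUSG00000003849, chromosome 8 from 107388225 to 107403206), a quinone reductase, had 8.45, 6.39 and 6.68 FPKM in the control and 6.10, 8.02 and 6.62 FPKM in the metformin libraries. One library of each group was high and the others low. The log2 fold change of Nqo1 was -0.05 with the widest interval of the members, -0.32 to 0.23 (standard error 0.12, adjusted p = 0.918 from limma), so that changes of up to -19.9% or 17.3% on the log2(FPKM + 1) scale lay within it. Nqo1 rested on an estimated 133 to 176 fragments per library, and its variation between control libraries of 15.5% compared with 8.68% from counting error at the lowest of these.

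Hmox1 (ENSMUSG00000005413, chromosome 8 from 75093621 to 75100589), the inducible haem oxygenase, had 22.6, 22.4 and 23.1 FPKM in the control and 22.8, 24.6 and 23.5 FPKM in the metformin libraries. Its metformin values exceeded all control values in repeats 2 and 3 but not in repeat 1. The log2 fold change of Hmox1 was 0.06 (standard error 0.03, interval -0.02 to 0.14, adjusted p = 0.580 from limma), and 0.03 without metformin repeat 2. Hmox2, the constitutive form, was the more abundant, and the Hmox1 to Hmox2 ratio was 0.740 ± 0.0197 in the control group and 0.774 ± 0.0409 with metformin (SD, n = 3 each).

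As a group, 0 of the 10 members passed at an adjusted p under 0.05 in limma, where 3 of all tested genes, or 0.0281%, did. At an unadjusted p under 0.05, 1 member was found, Gsr, against 10.8% of all tested genes. Groups did not overlap for 1 member that was higher with metformin, Keap1, and for 1 that was lower, Gsr, beside 8.89% and 8.1% of all tested genes in these directions. These shares are close to the background. By the sign of the log2 fold change 4 members were higher and 6 lower, which became 3 and 7 through G6pdx under each of the 3 other scalings, and 52.3% of all tested genes were higher. The median log2 fold change of the members was -0.0084, that of all tested genes 0.0041, and 10 of 10 members lay within 0.1 of no change, as did 79.7% of all tested genes. Outside Nqo1, the intervals of the members reached no lower than -0.15 and no higher than 0.16, whereas Trib3, a pseudokinase induced by ATF4, rose by 1.17 on the log2 scale (limma, standard error 0.04, adjusted p = 0.000127). Trib3 ranked 1 by p-value among all tested genes and does not stand for the whole stress list described below. Of the 20 tested genes of that list, 6 lay within 0.1 of no change.

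**Figure D3:**
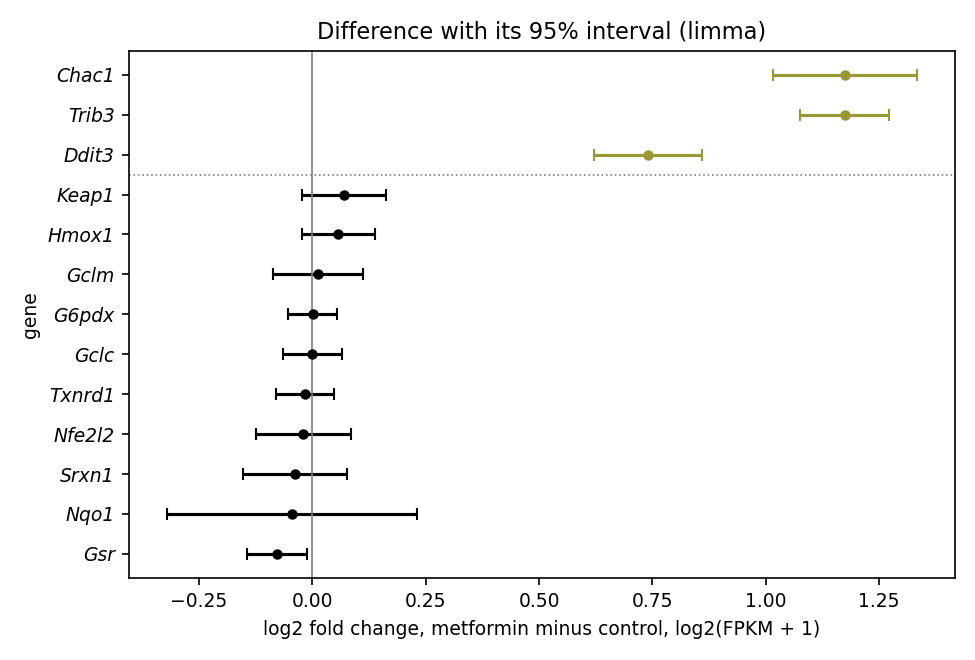
Log2 fold change on the log2(FPKM + 1) scale with its 95% interval from limma, for the 10 members and, above the dotted line, for 3 stress genes. The members lie between -0.08 and 0.07, and the stress genes Ddit3, Trib3 and Chac1 at 0.74, 1.17 and 1.18. These 3 are the only tested genes that passed, and the other genes of the ATF4 list are not drawn.

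The other genes of the pathway were described by lists, of which those for NRF2 control and for other NRF2 targets held the nearest neighbours of the members. For every list below, the shares of all tested genes were 6.03% higher and 4.81% lower at an unadjusted p under 0.05 in limma. By sign 52.3% of all tested genes were higher. Of 14 genes that control NRF2 or share its binding partners, 12 were tested and 0 passed in limma (1 at an unadjusted p under 0.05), with 8 higher and 4 lower (9 and 3 after quantile normalization) and log2 fold changes between -0.07 and 0.07. Nfe2l1 was the most abundant factor of the family, and the Nfe2l2 to Nfe2l1 ratio was 0.728 ± 0.0327 in the control group (SD, n = 3). Nfe2, the family member of blood cells, had 22.8, 23.1 and 22.1 FPKM in the control and 23.7, 22.4 and 25.5 FPKM in the metformin libraries. Of 24 other NRF2 targets 15 were tested and 0 passed in limma. At an unadjusted p under 0.05, 4 were higher (Fth1, Slc48a1, Slc6a9 and Osgin1) and 0 lower, beside 6.03% and 4.81% of all tested genes. Groups did not overlap for 4 that were higher and 0 that were lower, beside 8.89% and 8.1%. By sign 10 were higher and 5 lower (9 and 6 after quantile normalization), with a median log2 fold change of 0.02. Osgin1 had the largest rise of the list, 0.26 (standard error 0.10, adjusted p = 0.421 from limma), but its groups overlapped. Fth1, the heavy subunit of the iron store ferritin, had 786, 772 and 777 FPKM in the control and 849, 850 and 843 FPKM in the metformin libraries. This separation, a log2 fold change of 0.12 (standard error 0.02), gave the smallest adjusted p of the list, 0.192 from limma, and did not pass. By p-value Fth1 ranked 4 among the 10661 tested genes. Its adjusted p ranged from 0.0716, with only genes of at least 10 FPKM on average, to 0.460 under the 15 alternatives (limma). Ftl1, the light subunit, overlapped between the groups with 1191 to 1221 and 1203 to 1275 FPKM. Slc6a9, a glycine transporter, went from 4.41 ± 0.160 to 4.96 ± 0.281 FPKM (SD, n = 3 each, adjusted p = 0.423 from limma).

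Beyond its ligase, glutathione depends on the import of cystine, on transferases and peroxidases that use it, and on enzymes that break it down. Of 15 genes of synthesis, transport and breakdown 9 were tested, 8 of them higher (5 after rescaling to the same sum or median centring, 6 after quantile normalization), and 1 passed. This was Chac1, an enzyme that degrades glutathione, with 2.28, 2.79 and 2.49 FPKM in the control and 6.57, 7.26 and 6.99 FPKM in the metformin libraries. The log2 fold change of Chac1 was 1.18 with a standard error of 0.07, which passed (adjusted p = 0.00197 from limma) but not when each gene kept its own spread (adjusted p = 0.163). Chac1 is also a target of the ATF4 response, as are the cystine transporter subunits Slc7a11 and Slc3a2. Both lists hold these 3 genes, and which factor acted on them was not tested. They were the 3 of the 9 tested genes that were higher without overlap, beside 8.89% of all tested genes. Slc7a11 had 1.37 to 1.45 FPKM in the control and 1.64 to 1.95 FPKM in the metformin libraries, without overlap, and did not pass (log2 fold change 0.20, standard error 0.08, adjusted p = 0.423 from limma). Slc3a2 had 94.4 to 100.2 and 110 to 111 FPKM, again without overlap (adjusted p = 0.243 from limma). The 6 tested genes of this list that do not belong to the ATF4 list had log2 fold changes of -0.17 to 0.07 and a median of 0.00025, and 0 of them passed in limma, at the adjusted or the unadjusted p. Gss, the enzyme of the step after the ligase, went from 4.15 to 4.14 FPKM on average.

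Of 37 genes that use glutathione, 18 were tested and 0 passed in limma (1 at an unadjusted p under 0.05), with 7 higher and 11 lower (8 and 10 after quantile normalization) and a median log2 fold change of -0.0064. Gpx1, the main cytosolic glutathione peroxidase, was the most abundant at 283 ± 10.2 FPKM in the control and 284 ± 4.04 FPKM in the metformin group (SD, n = 3 each). Gstm1, a glutathione transferase, had 6.08, 6.15 and 5.34 FPKM in the control and 7.40, 6.80 and 7.48 FPKM in the metformin libraries. Its groups did not overlap, and its log2 fold change of 0.26 (standard error 0.06) did not pass (adjusted p = 0.320 from limma). Gstm genes are close paralogs, so that reads could be split among them, and this value is uncertain.

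Thioredoxins, peroxiredoxins and the related enzymes made up 23 genes, of which 21 were tested and 0 passed in limma, with 13 higher and 8 lower (14 and 7 after quantile normalization). At an unadjusted p under 0.05, 2 were higher and 1 lower, beside 6.03% and 4.81% of all tested genes. Groups did not overlap for 4 that were higher (Prdx4, Prdx5, Selenos and Sod1) and 2 that were lower, beside 8.89% and 8.1%. Prdx5 went from 40.0 ± 1.27 to 43.1 ± 0.471 FPKM and Selenos from 42.4 ± 0.772 to 44.3 ± 0.576 FPKM, both without overlap (adjusted p = 0.350 and adjusted p = 0.444 from limma). Txn1, thioredoxin itself, went from 393 ± 5.91 to 380 ± 6.64 FPKM and Sesn3 from 1.43 ± 0.0569 to 1.26 ± 0.0321 FPKM, also without overlap (SD, n = 3 each, adjusted p = 0.456 and adjusted p = 0.644 from limma). Of 12 genes of NADPH supply 9 were tested and 0 passed in limma (1 at an unadjusted p under 0.05), with 8 higher and 1 lower under each scaling. The gene at an unadjusted p under 0.05 was higher, beside 6.03% of all tested genes, and by sign 52.3% of all tested genes were higher. Groups did not overlap for 3 that were higher and 0 that were lower, beside 8.89% and 8.1% of all tested genes. Tkt, a transketolase, went from 110 ± 1.76 to 116 ± 4.36 FPKM and Pgd, the dehydrogenase that follows G6pdx in the pathway, from 54.8 ± 1.48 to 56.7 ± 0.347 FPKM (SD, n = 3 each, adjusted p = 0.404 and adjusted p = 0.528 from limma). All values of Tkt and Pgd with metformin were above those of the control, for Pgd by a margin of 56.40 over 56.38 FPKM, whereas those of G6pdx overlapped. Taldo1, a further gene of this list, had 117 to 119 FPKM in the control and 120 to 125 FPKM in the metformin libraries, without overlap.

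The stress response with which the members were compared was described by 23 genes under ATF4, a list chosen with its rise in these libraries known, so that its count is no independent evidence of its direction. Of its 20 tested genes 20 were higher with metformin under each scaling, beside 52.3% of all tested genes under the main scaling. In the main fit 3 passed in limma, and these were the only ones among the 10661 tested genes, or 0.0281%. Groups did not overlap, with metformin higher, for 18, beside 8.89% of all tested genes. The median log2 fold change was 0.17, and the smallest rise was 0.04. Of the 20, 6 lay within 0.1 of no change, as did 10 of 10 members and 79.7% of all tested genes. Trib3 had 6.42, 6.92 and 6.33 FPKM in the control and 15.9, 16.4 and 15.8 FPKM in the metformin libraries. Ddit3, which encodes CHOP, had 7.32, 6.90 and 7.77 FPKM in the control and 12.4, 13.5 and 12.9 FPKM in the metformin libraries, so that its log2 fold change was 0.74 (limma, standard error 0.05, adjusted p = 0.00453). With the same fold change Ddit3 did not pass when blocked on the replicate number (adjusted p = 0.0833 in limma) or when each gene kept its own spread (adjusted p = 0.174). Across the redox lists, without the 10 members and without the genes of the ATF4 list, 80 genes were tested and 0 passed in limma. At an unadjusted p under 0.05, 9 were higher and 1 lower, beside 6.03% and 4.81% of all tested genes. Groups did not overlap for 12 that were higher and 2 that were lower, beside 8.89% and 8.1%. By sign, under the main scaling only, 51 were higher and 29 lower, with a median log2 fold change of 0.02. The share higher was 63.75%, beside 52.3% of all tested genes. These counts leave out Chac1, Slc7a11 and Slc3a2, which the glutathione list also holds. Sesn2, a sestrin like Sesn3, was held by the ATF4 list only. Its groups did not overlap, with metformin higher (log2 fold change 0.41, standard error 0.06, adjusted p = 0.201 from limma). The difference between the stress list and the members was not tested as a set, and the values stand side by side.

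**Figure D4:**
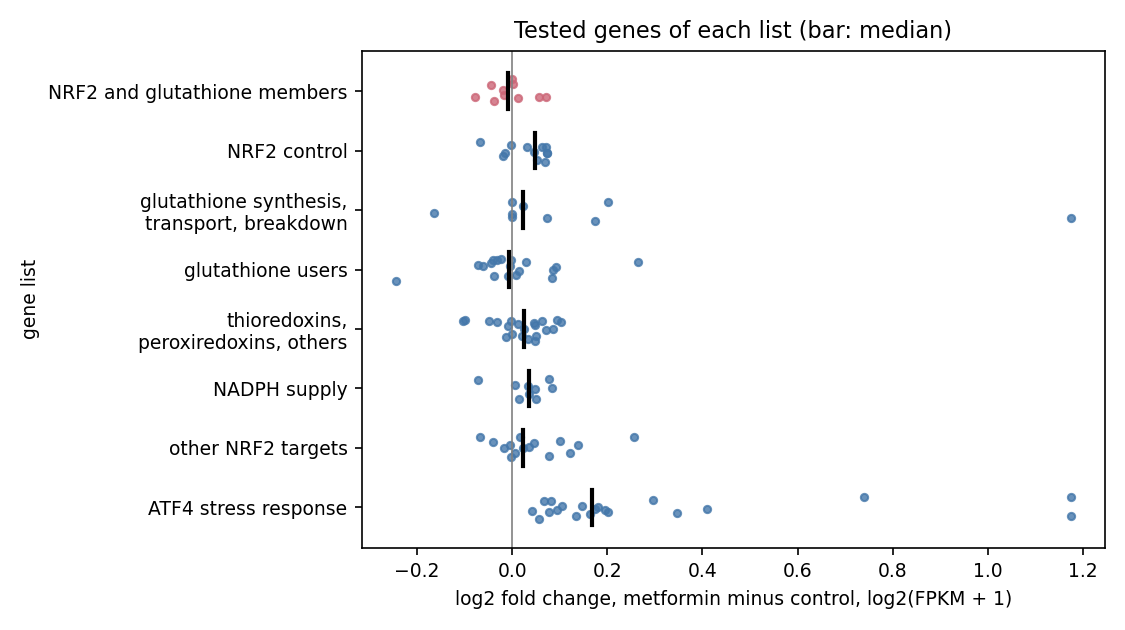
Log2 fold change of each tested gene (points) and the median (black bar) for the 10 members and for the gene lists of the pathway, on the log2(FPKM + 1) scale. The medians of the redox lists lie between -0.0084 and 0.05, that of the ATF4 stress list at 0.17, and the point at 1.18 in the glutathione list is Chac1, which both lists hold.

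Averaged over the members after standardising each, the mean profile was lowest in metformin repeat 1 (-0.448) and highest in metformin repeat 2 (0.322), with control repeats 1 to 3 at 0.185, -0.245 and 0.170. The metformin repeats thus spanned the range of the control repeats in this mean. Among 10651 other genes, Zfp706, Adh5 and Pphln1 followed this profile most closely over the 6 libraries, with Pearson's r of 0.989, 0.988 and 0.985 and Spearman's rho of 0.943, 1 and 0.943. They are the highest of all genes compared and were given no test.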

How the data were processed

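The authors deposited FPKM values, fragments per kilobase of gene and per unit of mapped fragments, for 55401 genes in 3 control and 3 metformin libraries, rounded to 2 decimals. The submitters' processing notes name HISAT2, DESeq2 and mm9 without a role, whereas the positions of the members in the table are those of GRCm38. The labels and the methods name different mRNA library kits, and the counter and its use of strand are not given in the sources used here. FPKM values are not counts, so no count test was made.

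Values were analysed as log2(FPKM + 1), for the 10661 genes that averaged 1 FPKM or more, with limma 3.58.1 in R 4.3.3 (lmFit, eBayes with a trend, two-sided), Benjamini-Hochberg adjustment over all of them and a threshold of 0.05. Fold changes on this scale understate changes of low genes. Groups came from the treatment labels. The repeat numbers did not pair the libraries (correlations of deviations -0.0317, 0.0181 and 0.0479), and the main fit had no block. Pairs of libraries shared at most 1.48% of their values. Depth was estimated from single-exon genes shorter than 400 bp, where 100% of values lay within 0.1 of a whole fragment number. Fragment numbers use GENCODE M1 exon lengths, and errors given for them cover counting only.

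The members and lists were chosen with earlier results of these data known. Symbols were found for 196 of the 197 listed genes. Named genes were the members, the genes that passed, the 3 most alike, and per list the largest 2 rises and 2 falls among genes whose groups did not overlap. Nfe2, Nfe2l1, Gss, Gpx1, Slc3a2, Ftl1, Hmox2, Txnrd2, Txnrd3, Sesn2, Osgin1, Slc48a1, Taldo1, Prdx4 and Sod1 were named after their values were seen. Alternatives were a pseudocount of 0.1, no filter, a mean of at least 10 FPKM, 3 scalings, other spreads, a replicate block and each library left out.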

Additional observations from a re-analysis of the deposited data

How the results depend on the processing

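Under all 15 alternatives 0 of the 10 members passed, and the smallest adjusted p of a member, that of Gsr with only genes of at least 10 FPKM on average, was 0.309 (limma). Nqo1 was not tested under that filter. At an unadjusted p under 0.05 Gsr was lost without control repeat 2 and without metformin repeat 1, 2 or 3. Keap1 and Hmox1 kept a positive and Gsr and Txnrd1 a negative sign under every alternative run, but with libraries left out their log2 fold changes ranged from 0.0316 to 0.0966, from 0.0302 to 0.0808, from -0.0892 to -0.0589 and from -0.0360 to -0.0012 in this order. G6pdx changed sign with each library rescaled to the same sum (-0.0038), quantile normalization (-0.0032) and median centring (-0.0016). With each library left out in turn, log2 fold changes ranged from -0.0087 to 0.0137 for G6pdx, from -0.0614 to 0.0163 for Nfe2l2, from -0.0140 to 0.0126 for Gclc, from -0.0163 to 0.0527 for Gclm, from -0.0681 to 0.0047 for Srxn1 and from -0.144 to 0.0636 for Nqo1, so their signs rest on single libraries. The causes of these changes were not tested. With the replicate block 0 members and 2 genes passed in all, Trib3 and Chac1. Chac1 and Ddit3 did not pass when each gene kept its own spread (adjusted p = 0.163 and adjusted p = 0.174). Genes lower with metformin numbered 3 without a filter on low values and 0 to 1 with libraries left out, 1 of them each without control repeat 3 and without metformin repeat 3. At 13400000 fragments or more per library, Nqo1 had the fewest estimated fragments of the members, 133 to 176. Its control variation of 15.5% was above the 8.68% from counting error, and the part of depth in its wide interval was not tested.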

Other observations

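Beyond the members, families that use glutathione were unevenly expressed in these cultures. Of 20 glutathione transferase genes listed, 8 reached a mean of 1 FPKM and 9 were listed at 0 in all 6 libraries. Gstp1 was the highest at 60.0 FPKM. It is a close paralog of Gstp2, which was listed at 0, so the split of reads between them is uncertain. Of 7 glutathione peroxidases 2 reached 1 FPKM, and Gpx1 made up 87.2% of their summed FPKM. All 6 peroxiredoxins were expressed, with Prdx1 highest at 207 FPKM. The genes Ggt1, Ggt5, Ggt6 and Ggt7 of the gamma-glutamyl transferase family were at or under 0.27 FPKM in every library. Nnt, the mitochondrial transhydrogenase that makes NADPH, had 0.41 to 0.54 FPKM. The choice of these families was made with their values in view.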
